A study of Mus musculus with 6 samples.

Results

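The genes described here are 10 that late retinal progenitors and Müller glia express: Rlbp1, Slc1a3, Clu, Dkk3, Crym, Car2, Glul, Vim, Gpr37 and Sparc. They were chosen by name, and all 10 were found among the 55487 counted genes by matching each Ensembl identifier to the gene name in the authors' deposited table. RNA was sequenced from whole retinas of C57BL/6 mouse embryos at embryonic day 16.5, as 3 Foxp1 cKO libraries and 3 control libraries by their labels. Animals labelled cKO had the genotype Foxp1 fl/fl, Six3-Cre, in which Cre recombinase is driven by Six3 sequence in the early retina. Animals labelled control had Foxp1 fl/fl with no Cre, so both groups carry the loxP-flanked alleles. All animals were littermates from a single litter, each library is a separate animal, and both retinas of an animal were combined. By label, 1 animal was female and 2 were male in the cKO group, and 2 were female and 1 was male in the control group.

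Retinal progenitors change over development in what they produce, giving ganglion, horizontal and cone cells early and rods, bipolar cells and Müller glia late. Müller glia are the last cell type to be born and keep many progenitor genes active, so that the same genes mark late progenitors and the glia that follow them. Mature Müller glia span the retina, clear glutamate and turn it into glutamine, handle retinoids for cones, and buffer ions and acid. Foxp1, a forkhead transcription factor, is named in the title of the series as a target of Jarid2 in the temporal progression of progenitors.

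The targeted gene goes against the labels. Foxp1 was at 72.3, 75.4 and 68.7 CPM (read counts scaled to a common library size) across labelled cKO libraries 1, 2 and 3, against 50.7, 41.0 and 46.2 CPM across labelled control libraries 1, 2 and 3. Xist and the Y-linked genes went with the sex on the label in all but library cKO 2 and library control 2, which is 4 of 6 libraries. With the labelled sexes exchanged between the groups, number for number, they went with the sex in 6 of 6. The authors' deposited table has the opposite direction for Foxp1. A DESeq2 fit of the same 6 libraries over the 21080 genes of that table alone, with the labelled sexes exchanged between the groups as a covariate, gave the log2 fold changes of that table with the opposite sign for all 17107 genes with a mean of at least 10 normalized counts and for all 10 genes described here, within 0.001. Groups are therefore named as labelled, and every direction below would turn with an exchange of the labels. Total counts were 23707761 to 25714620 per library.

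The progenitor marker Rax was abundant and some markers of mature Müller glia were near 0. Rax, a homeobox gene of retinal progenitors, was at 562, 545 and 544 CPM across labelled cKO libraries 1, 2 and 3, against 564, 530 and 564 CPM across labelled control libraries. Of 25 further Müller glia genes, 4 averaged below 1 CPM: the water channel gene Aqp4, the glial filament gene Gfap, Abca8a and Dio2. The rest of the 25 averaged above 1 CPM. Col9a1 was highest, with means of 235 CPM over labelled cKO and 207 CPM over labelled control libraries. Aqp4 was at 0.27, 0.08 and 0.32 CPM across labelled cKO libraries 1, 2 and 3, against 0.25, 0.24 and 0.51 CPM across labelled control libraries. The 10 genes took 0.303% to 0.312% of the counts of libraries labelled cKO and 0.282% to 0.304% of those labelled control. Late progenitors and early glia cannot be told apart in these libraries.

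Promoter windows in RefSeq (GRCm38.p6, the same assembly as mm10, 250 bases before to 50 after the start) were matched for 6 of the genes: Rlbp1, Slc1a3, Glul, Vim, Gpr37 and Sparc. They were searched on both strands for the forkhead motif TGTTTAC, its shorter core TGTTTA, the nuclear factor I (NFI) half-site TTGGC and the full NFI palindrome. The forkhead motif contains its core, and the palindrome contains the half-site. The 3 windows that held a match are shown because Foxp1 is a forkhead factor and because of Nfib. Nfib is the 1 regulator of late progenitors that passed the edgeR test below. Capitals mark TGTTTA in Sparc and TTGGC or its reverse complement in Glul and Vim.
Sparc promoter, chr11:55420031-55420330, minus strand: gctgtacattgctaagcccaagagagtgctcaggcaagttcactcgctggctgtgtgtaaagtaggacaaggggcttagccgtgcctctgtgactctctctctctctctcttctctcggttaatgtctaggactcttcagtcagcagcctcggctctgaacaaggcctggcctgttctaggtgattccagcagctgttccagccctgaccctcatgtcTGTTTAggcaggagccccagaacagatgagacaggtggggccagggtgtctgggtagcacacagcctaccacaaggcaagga
Glul promoter, chr1:153899679-153899978, plus strand: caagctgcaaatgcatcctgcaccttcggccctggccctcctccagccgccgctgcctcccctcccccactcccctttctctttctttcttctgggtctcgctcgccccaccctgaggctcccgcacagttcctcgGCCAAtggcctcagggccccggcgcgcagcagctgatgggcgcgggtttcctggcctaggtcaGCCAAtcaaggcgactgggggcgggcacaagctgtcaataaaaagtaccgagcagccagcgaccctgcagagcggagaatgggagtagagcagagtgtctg
Vim promoter, chr2:13574061-13574360, plus strand: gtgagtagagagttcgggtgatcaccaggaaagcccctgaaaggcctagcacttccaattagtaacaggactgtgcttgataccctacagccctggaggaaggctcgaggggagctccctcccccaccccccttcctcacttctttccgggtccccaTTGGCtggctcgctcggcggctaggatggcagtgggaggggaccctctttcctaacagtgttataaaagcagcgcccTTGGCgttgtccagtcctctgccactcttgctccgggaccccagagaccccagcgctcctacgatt
No member window held TGTTTAC, which 3.65% of all 32851 promoter windows hold, or the NFI palindrome, which 0.0365% hold. Sparc held TGTTTA once, from position -32 relative to the start (13.4% of all windows hold it). TTGGC was found in 2 of the 6 windows, at positions -93 and -16 of Vim and at -114 and -51 of Glul on the other strand, and 46.7% of all windows hold it. These are matches of letters and not binding sites.

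Levels per length of exon spread widely between the genes. Dkk3, a secreted protein related to the Dickkopf Wnt inhibitors, was highest at 381 ± 21.6 RPKM (CPM divided by the kilobases of summed exon; mean ± SD over all 6 libraries), and Clu lowest at 3.60 ± 0.647 RPKM, a ratio of 105.9. Between them, in order, came Glul at 213 ± 6.78, Vim at 90.5 ± 4.76, Sparc at 45.9 ± 3.16, Car2 at 23.0 ± 3.79, Slc1a3 at 22.2 ± 0.877, Gpr37 at 15.7 ± 0.539, Crym at 13.6 ± 1.46 and Rlbp1 at 4.195 ± 0.763 RPKM. Dkk3 and Glul lay at the 99.4 and 99.0 percentile of tested genes in RPKM, against 47.5 for Rlbp1 and 44.4 for Clu. The library ranges of neighbours overlapped for Car2 and Slc1a3, for Gpr37 and Crym, and for Rlbp1 and Clu. The other neighbours were separated in every library.

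**Figure D1:**
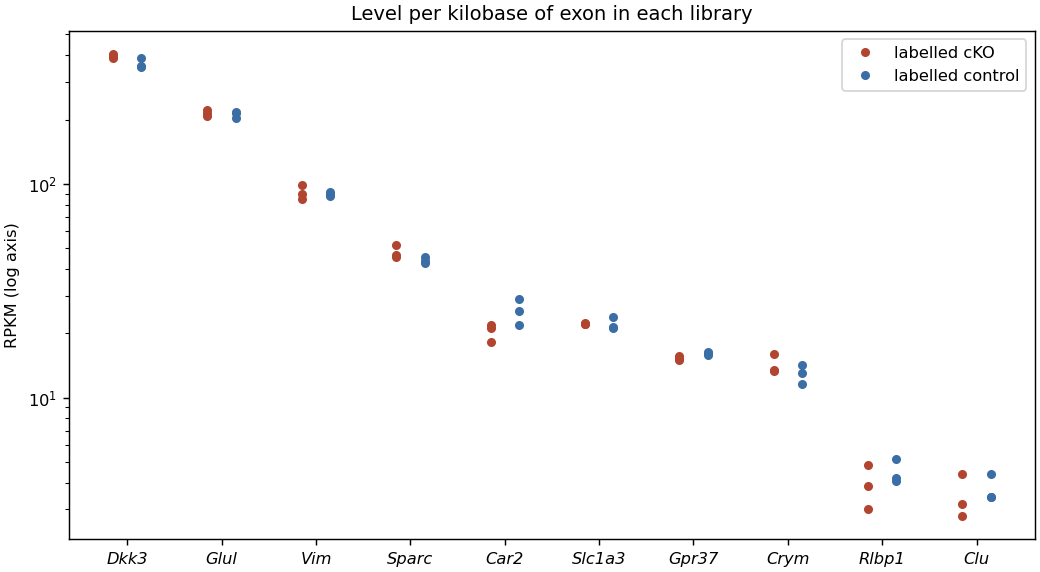
Level of each gene in RPKM (log axis) in the 3 libraries labelled cKO (red, left) and the 3 labelled control (blue, right). Dkk3, Glul, Vim and Sparc stand above the other genes in every library, and Rlbp1 and Clu stand below them.

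The 10 genes were compared between the labelled groups. Foxp1 was higher in the libraries labelled cKO, so no direction here is read as an effect of its loss. None of the 10 genes passed an edgeR adjusted p of 0.05, while 0.781% of all tested genes did (135 of 17275), 0.295% higher and 0.486% lower over labelled cKO libraries. At an unadjusted p under 0.05 in edgeR there were 3, Dkk3, Car2 and Sparc, where 16.5% of tested genes lie. DESeq2 called 1, Car2, against 9.61% of genes with a DESeq2 adjusted p (566 of 5887). Rlbp1 and Clu had no adjusted p in that DESeq2 fit. Fold changes ran from -0.32 to 0.14 on the log2 scale with a median of 0.01, against a median of 0.00 over all tested genes (0.0007). There were 6 genes with a positive and 4 with a negative value. The libraries of the groups did not overlap in CPM for 2 of the 10, Dkk3 and Gpr37, against 20.1% of all tested genes. Dkk3 was higher in every labelled cKO library, as 10.8% of tested genes were, and Gpr37 lower, as 9.30% were. RNA from whole retinas cannot tell fewer cells of a type from less RNA per cell.

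**Figure D2:**
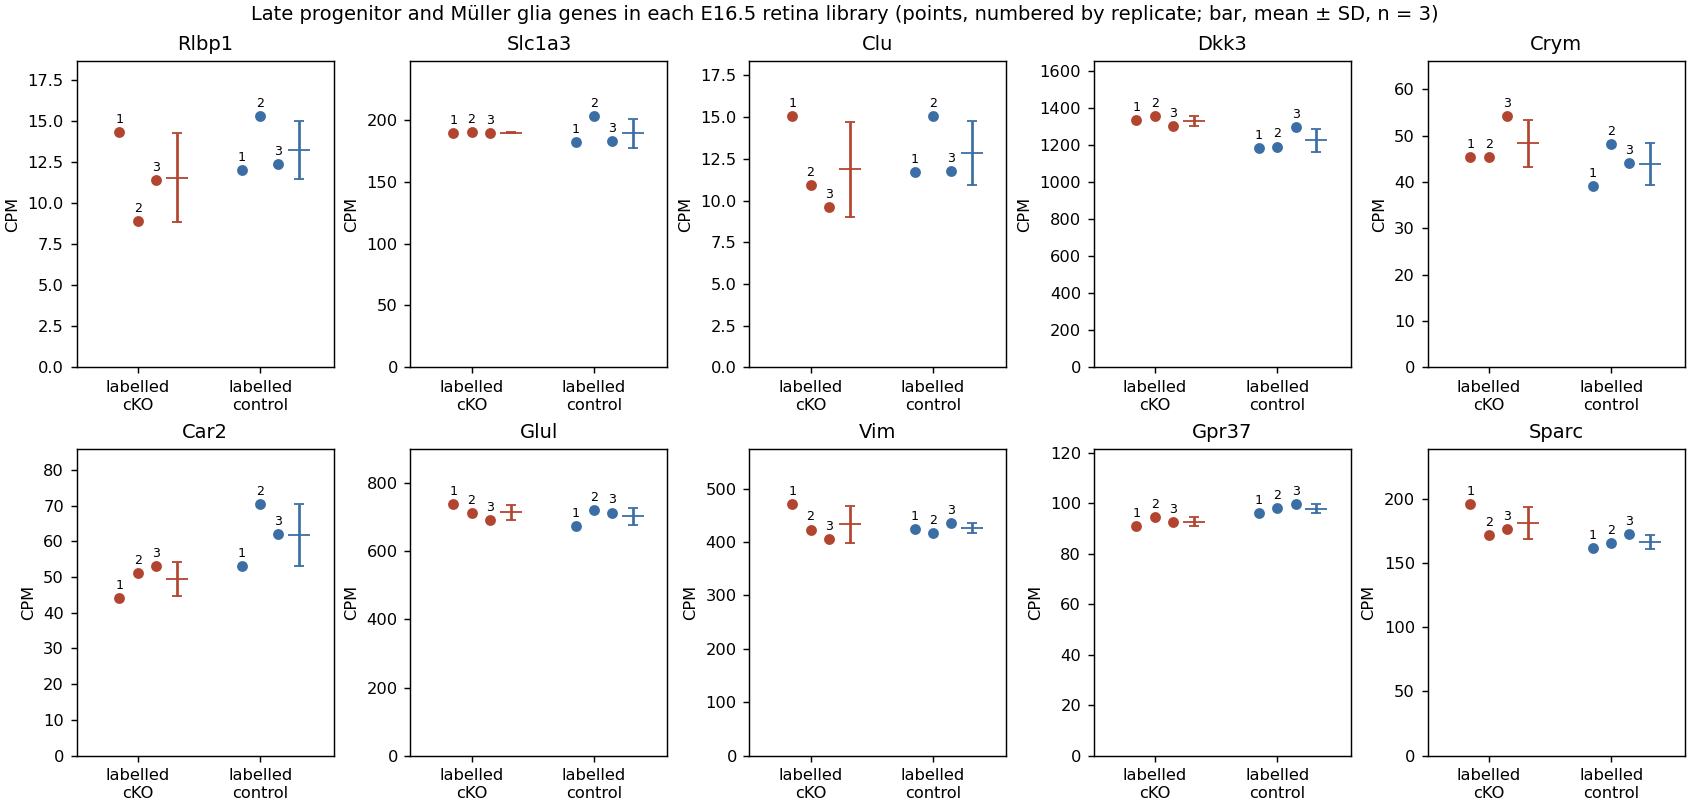
CPM of each gene by library (points numbered by replicate) with the mean and SD of each group (n = 3), libraries labelled cKO on the left and labelled control on the right, on axes from 0. Dkk3 and Gpr37 separate the groups; the other 8 genes have overlapping libraries.

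No difference passed for the 2 genes of glutamate handling. Slc1a3 encodes GLAST, the glutamate transporter of Müller glia and astrocytes (ENSMUSG00000005360, chromosome 15, 8634124 to 8710764, minus strand, mm10). It was at 189, 190 and 189 CPM across labelled cKO libraries 1, 2 and 3, against 182, 203 and 182 CPM across labelled control libraries. The labelled cKO libraries lay between the lowest and highest control library. The log2 difference (labelled cKO over labelled control) was 0.00 (0.0047, standard error 0.05, edgeR adjusted p 0.978) with a 95% confidence interval from -0.10 to 0.11. Glul encodes glutamine synthetase, which turns glutamate and ammonia into glutamine (ENSMUSG00000026473, chromosome 1, 153899944 to 153909723, plus strand). Glul was at 738, 712 and 694 CPM across labelled cKO libraries, against 674, 722 and 715 CPM across labelled control libraries. The groups overlapped, with a log2 difference of 0.02 (standard error 0.05, edgeR adjusted p 0.882, interval -0.08 to 0.13). Its exons overlap 116 bases of Teddm2 on the other strand and the microRNA gene Mir8114 on the same strand, so some of its reads are uncertain. Of 11 other genes of glutamate and glutamine metabolism and transport none passed. The most abundant were the glutamine transporter gene Slc38a1 (log2 -0.09, edgeR adjusted p 0.430), the aminotransferase gene Got2 (0.0048, 0.978) and the dehydrogenase gene Glud1 (0.11, 0.210). Of the others, the neuronal transporter gene Slc1a1 was at 6.00 ± 0.155 CPM over labelled cKO libraries and 8.01 ± 0.262 CPM across labelled control libraries (SD, n = 3 each, log2 fold change -0.42, edgeR adjusted p 0.081), and the glial transporter gene Slc1a2 had a log2 difference of -0.15 (edgeR adjusted p 0.110). Slc1a1 and Slc1a2 were named after their values were seen.

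Car2 had the largest difference of the 10. It encodes a cytosolic carbonic anhydrase, which interconverts carbon dioxide and bicarbonate and is also abundant in red blood cells (ENSMUSG00000027562, chromosome 3, 14886273 to 14900770, plus strand). Car2 was at 44.1, 51.1 and 53.2 CPM across labelled cKO libraries 1, 2 and 3, against 53.0, 70.3 and 61.9 CPM across labelled control libraries. Library cKO 3 lay just above control 1, so the groups overlapped by that 1 pair. The group means were 49.5 ± 4.74 CPM for labelled cKO and 61.7 ± 8.68 CPM for labelled control (SD, n = 3 each), a log2 difference of -0.32 with a standard error of 0.12, a 95% interval from -0.62 to -0.02 and an edgeR adjusted p of 0.267. DESeq2 gave -0.32 with an adjusted p of 0.016. In edgeR, leaving out the library labelled control 1 gave -0.42 (adjusted p 0.029) and leaving out control 2 gave -0.22 (adjusted p 0.272). Adding the exchanged sexes gave -0.24 both in edgeR (adjusted p 0.055) and in DESeq2 (adjusted p 0.057). The authors' deposited table has Car2 at 0.24 for cKO against control with a DESeq2 adjusted p of 0.070. Markers of red blood cells (9 genes, 3 of them below 1 CPM on average) summed to 181, 141 and 111 CPM across labelled cKO libraries and to 74.5, 92.5 and 148 CPM across labelled control libraries. The groups of these sums overlapped, and the part of red blood cells in the value of Car2 was not tested. Of the 13 related filament and carbonic anhydrase genes, 12 were tested and none passed in edgeR. The authors' deposited table has the filament gene Synm at 0.28 (DESeq2 adjusted p 0.031), alone of this list past 0.05.

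Crym and Rlbp1 bind small molecules in the cytosol. Crym encodes mu-crystallin, a ketimine reductase that binds thyroid hormone (ENSMUSG00000030905, chromosome 7, 120186380 to 120202111, minus strand). It was at 45.4, 45.5 and 54.2 CPM across labelled cKO libraries 1, 2 and 3, against 39.2, 48.2 and 44.2 CPM across labelled control libraries. Library cKO 3 was the highest and control 1 the lowest, and the groups overlapped. The log2 difference was 0.14 (standard error 0.08, interval -0.04 to 0.32, edgeR adjusted p 0.438). Adding the exchanged sexes as covariate, Crym had 0.22 (edgeR adjusted p 0.038) and a DESeq2 adjusted p of 0.053. The authors' deposited table lists Crym at -0.22 with a DESeq2 adjusted p of 0.063. Of 7 thyroid hormone genes none passed; the receptor gene Thra had a log2 difference of -0.04 (edgeR adjusted p 0.763) and Thrb of -0.12 (0.192).

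Rlbp1 encodes the cellular retinaldehyde-binding protein, which carries 11-cis retinoids in Müller glia and in the pigment epithelium (ENSMUSG00000039194, chromosome 7, 79374870 to 79387048, minus strand). It was at 14.3, 8.89 and 11.4 CPM across labelled cKO libraries 1, 2 and 3, against 12.04, 15.3 and 12.4 CPM across labelled control libraries. Control 2 and cKO 1 were highest and cKO 2 lowest. The log2 difference was -0.20 with a standard error of 0.16, and the interval ran from -0.565 to 0.17 (edgeR adjusted p 0.625). Clu encodes clusterin, a secreted chaperone and apolipoprotein (ENSMUSG00000022037, chromosome 14, 65968483 to 65981547, plus strand). It was at 15.1, 10.9 and 9.63 CPM across labelled cKO libraries, against 11.7, 15.1 and 11.8 CPM across labelled control libraries. Control 2 and cKO 1 were again highest, and the log2 fold change was -0.12 (standard error 0.17, interval -0.50 to 0.26, edgeR adjusted p 0.802). Without both cKO 2 and control 2 it was 0.08 for Rlbp1 and 0.07 for Clu.

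Markers of the pigment epithelium had a like order over the libraries. Their 10 genes summed to 118, 46.8 and 41.0 CPM across labelled cKO libraries 1, 2 and 3, against 80.9, 120 and 71.7 CPM across labelled control libraries. The melanosome gene Pmel alone was at 59.4, 21.7 and 18.8 CPM across labelled cKO libraries, against 41.7, 60.1 and 38.1 CPM across labelled control libraries. Library cKO 1 and control 2 had the most in each case, as for Rlbp1 and Clu. The pigment epithelium gene Rpe65 was at 0 in cKO 1 and in all 3 control libraries and at 0.08 CPM or less in the other two. The part of pigment epithelium RNA in the values of Rlbp1 and Clu was not tested.

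**Figure D3:**
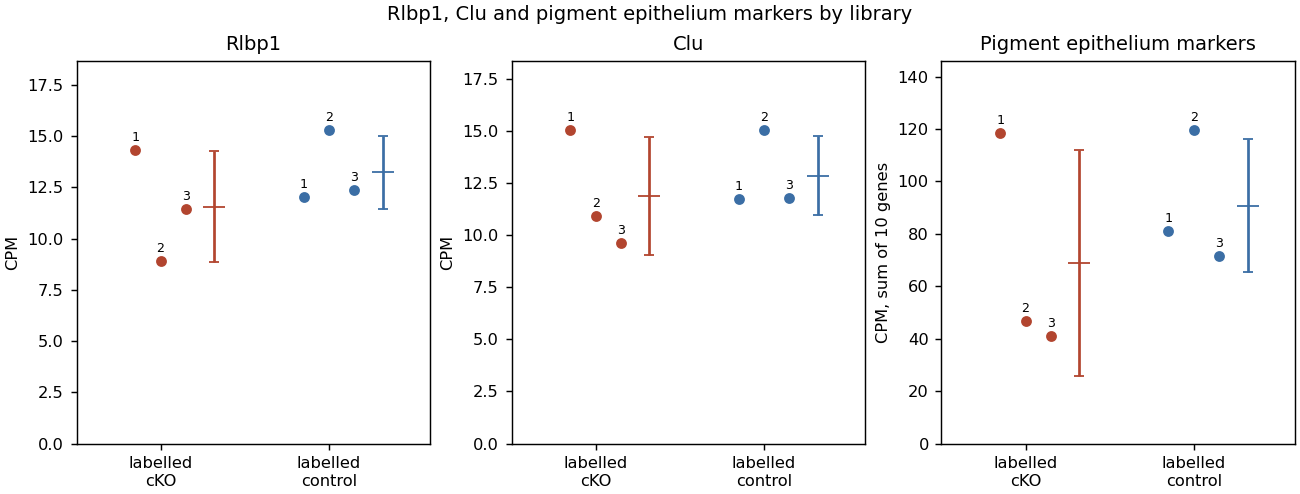
CPM of Rlbp1, Clu and the sum of 10 pigment epithelium markers by library (points numbered by replicate; bar, mean ± SD, n = 3), libraries labelled cKO on the left. In all panels the libraries labelled cKO 1 and control 2 are the highest of their group.

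Among other retinoid genes, the retinoic acid-binding genes Crabp1 and Crabp2 had log2 differences of 0.19 and 0.15 (edgeR adjusted p 0.141 and 0.263), and were named after their values were seen.

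Of the secreted and matrix proteins Dkk3 and Sparc, neither passed the test. Dkk3 (ENSMUSG00000030772, chromosome 7, 112116017 to 112159057, minus strand) was at 1335, 1356 and 1305 CPM across labelled cKO libraries 1, 2 and 3, against 1186, 1193 and 1300 CPM across labelled control libraries. The groups did not overlap, with cKO 3 just above control 3. The log2 difference was 0.12 (standard error 0.05, interval 0.01 to 0.23) with an edgeR adjusted p of 0.244 and 0.090 by DESeq2. The authors' deposited table has -0.12 with a DESeq2 adjusted p of 0.113. Sparc encodes a matricellular glycoprotein that binds collagen (ENSMUSG00000018593, chromosome 11, 55394500 to 55423183, minus strand). Sparc was at 196, 172 and 177 CPM across labelled cKO libraries, against 161, 166 and 172 CPM across labelled control libraries. Library cKO 2 lay just below control 3, and the log2 fold change was 0.12 (standard error 0.05, interval 0.01 to 0.235, edgeR adjusted p 0.248).

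Sparc is also made by mesenchyme. Mesenchyme markers were 11 genes, with most of the sum from the collagen genes Col1a1 and Col1a2. They summed to 125, 78.2 and 154 CPM across labelled cKO libraries 1, 2 and 3. Across labelled control libraries they summed to 40.5, 95.5 and 90.5 CPM, and 6 of them averaged below 1 CPM. Of the 8 tested, 5 had a positive and 3 a negative fold change, and none passed in edgeR. Col1a1 had a log2 difference of 0.86 (edgeR adjusted p 0.543) and Col1a2 of 0.64 (0.408). The authors' deposited table has Col1a1 at -1.32 (DESeq2 adjusted p 3.5e-06) and Col1a2 at -0.84 (1.3e-07). The other mesenchyme markers have no adjusted p there. Col3a1, also a collagen gene, had a log2 difference of -0.04 (edgeR adjusted p 0.985). Lens markers (17 genes) summed to 86.5, 31.1 and 372 CPM across labelled cKO libraries, against 87.6, 366 and 1350 CPM across labelled control libraries, with library control 3 highest. Endothelial markers (8 genes, with most of the sum from Kdr, which retinal progenitors also express) summed to 300 to 310 CPM over labelled cKO libraries and 331 to 357 CPM across labelled control libraries. The part of these cells in the values of Sparc and Vim was not tested. Of the 12 relatives of Sparc and Dkk3 9 were tested and none passed, among them Spock2 (log2 fold change 0.00, edgeR adjusted p 0.986), Spock1 (0.01, 0.978) and Fstl1 (0.06, 0.652).

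Neither the filament gene Vim nor the receptor gene Gpr37 passed the test. Vim encodes vimentin, the intermediate filament of progenitors and Müller glia and also of mesenchyme and lens (ENSMUSG00000026728, chromosome 2, 13573927 to 13582826, plus strand). It was at 470, 423 and 405 CPM across labelled cKO libraries 1, 2 and 3, against 425, 416 and 436 CPM across labelled control libraries. The libraries labelled cKO held both the highest and the lowest value. The log2 difference was 0.02 (standard error 0.06, interval -0.09 to 0.14, edgeR adjusted p 0.893). The neurofilament genes Nefl and Nefm and the related Ina, filaments of neurons, had log2 differences of 0.08, -0.07 and -0.10, with edgeR adjusted p of 0.475, 0.621 and 0.378.

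Gpr37 encodes a G protein-coupled receptor found in glia (ENSMUSG00000039904, chromosome 6, 25665878 to 25690729, minus strand). It was at 90.9, 94.6 and 92.5 CPM across labelled cKO libraries 1, 2 and 3, against 96.0, 98.1 and 99.5 CPM across labelled control libraries. Every library labelled cKO was below every one labelled control, but by little: the log2 fold change was -0.08 (standard error 0.04, interval -0.17 to 0.01, edgeR adjusted p 0.389). Its proposed ligand gene Psap was at 382 ± 16.4 CPM over labelled cKO libraries and 380 ± 9.89 CPM across labelled control libraries (SD, n = 3 each). Of 7 partner genes of Clu and Gpr37 6 were tested and none passed, the lipoprotein receptor genes Lrp8 (log2 -0.07, edgeR adjusted p 0.530) and Vldlr (-0.09, 0.392) among them.

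**Figure D4:**
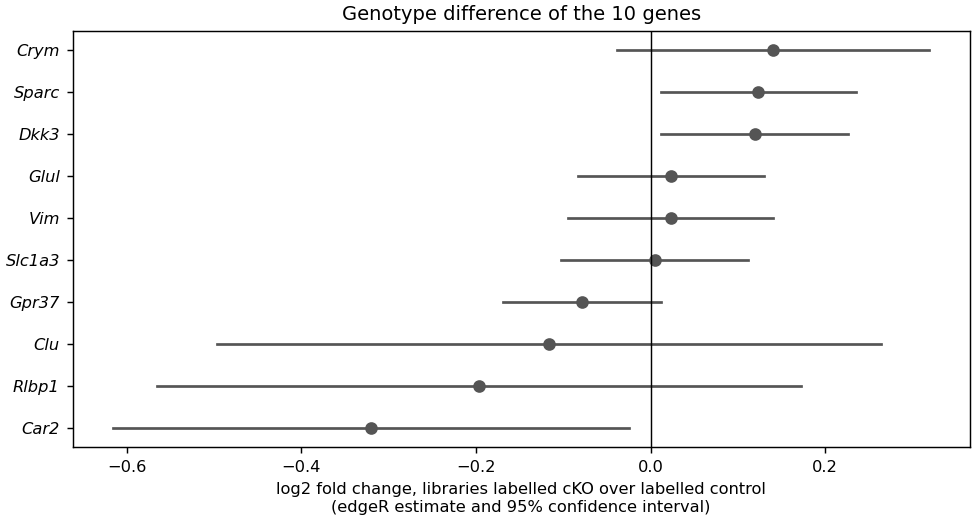
Log2 fold change of each gene (libraries labelled cKO over labelled control, edgeR, n = 3 each) with its 95% confidence interval. The intervals of Dkk3 and Sparc lie above 0 and that of Car2 below 0 before adjustment, and the widest intervals belong to Car2, Clu and Rlbp1.

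The coefficient of variation within a labelled group was 23.5% and 13.5% for Rlbp1 (cKO, control), 23.9% and 14.7% for Clu, 9.58% and 14.1% for Car2, and 10.5% and 10.3% for Crym. It was 7.81% or less in both groups for Slc1a3, Dkk3, Glul, Vim, Gpr37 and Sparc. For Slc1a3, Glul and Vim the intervals end at 0.14 or less in either direction on the log2 scale. For Rlbp1 and Clu the intervals reach -0.565 and -0.50, so values of that size are not excluded.

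Regulators of late progenitors gave 1 call in the edgeR fit. Of 20 tested, 14 had a negative and 6 a positive fold change (median log2 -0.06). Over all tested genes the log2 fold change fell with summed exon length (Spearman correlation -0.27). The part of exon length in the splits of sign of this list and of those below was not tested. Nfib passed, against 0.486% of all tested genes called lower in the libraries labelled cKO. Nfib, a nuclear factor I transcription factor that late progenitors and Müller glia need, was at 39.0, 44.1 and 43.6 CPM across labelled cKO libraries 1, 2 and 3, against 51.2, 58.2 and 50.1 CPM across labelled control libraries. The groups were apart, with a log2 difference of -0.33 (standard error 0.07, edgeR adjusted p 0.029). The call held in 12 of 19 alternatives, DESeq2 among them (adjusted p 0.0027). It was lost without the library labelled cKO 2 (log2 -0.36, edgeR adjusted p 0.101), cKO 3 (-0.35, 0.102) or control 2 (-0.26, 0.144), without both cKO 2 and control 2 (-0.29, 0.714), and with the exon length trend removed (log2 fold change -0.22, adjusted p 0.156). With no robust estimation it was -0.33 (edgeR adjusted p 0.118), and limma-voom gave -0.33 (adjusted p 0.107). The authors' deposited table has Nfib at 0.31 (DESeq2 adjusted p 0.015).

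The other regulators did not pass in the edgeR fit. Sox9, a transcription factor of progenitors and Müller glia, was at 175 ± 14.5 CPM over labelled cKO libraries and 203 ± 8.81 CPM across labelled control libraries (SD, n = 3 each; log2 fold change -0.21, edgeR adjusted p 0.074). Nfia had a log2 difference of -0.18 (edgeR adjusted p 0.164), Casz1 of -0.20 (0.137), Notch1 of -0.30 (0.194) and the RNA-binding protein gene Zfp36l1 of -0.14 (0.198). On the positive side were the Notch targets Hes1 (0.16, edgeR adjusted p 0.111) and Hes5 (0.10, 0.312). So were Id3 (0.14, edgeR adjusted p 0.106), Id2 (0.11, 0.298), Id1 (0.08, 0.539) and Sox2 (0.06, 0.643). The progenitor homeobox gene Rax was level at -0.01 (edgeR adjusted p 0.969). The authors' deposited table puts Sox9 (log2 0.25, DESeq2 adjusted p 0.0029), Casz1 (0.24, 0.012) and Zfp36l1 (0.18, 0.025) past 0.05. Of all its genes with an adjusted p, 8.97% pass. No other gene of this paragraph passes there, with Notch1 closest (0.35, DESeq2 adjusted p 0.051). All genes of this paragraph were named after their values were seen.

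**Figure D5:**
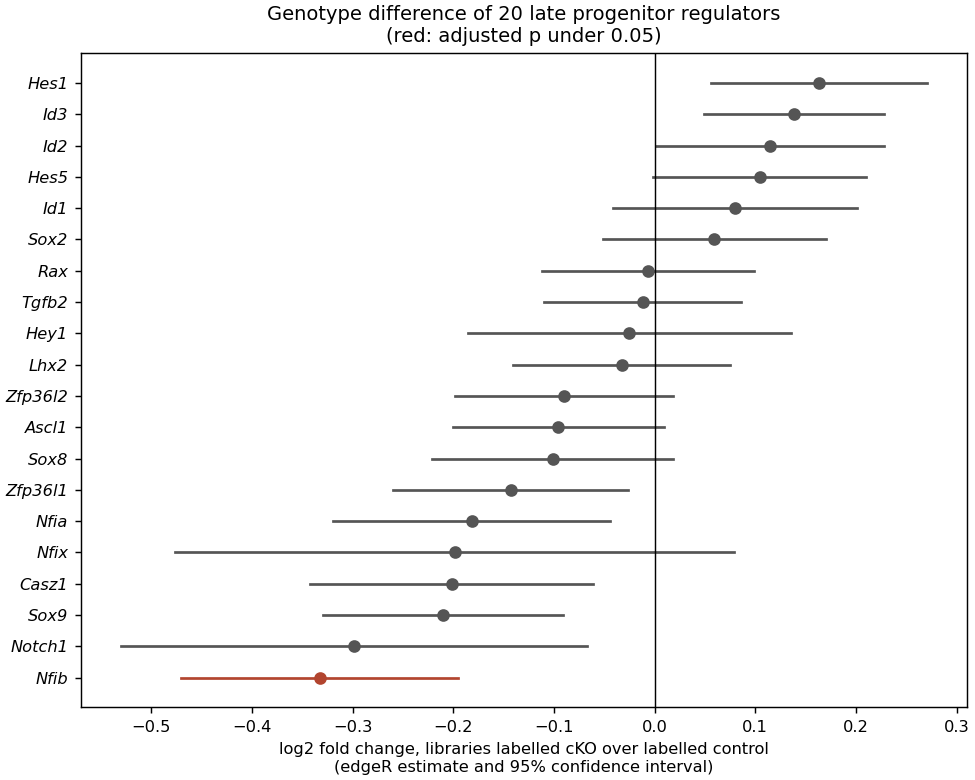
Log2 fold change (libraries labelled cKO over labelled control, edgeR, n = 3 each) with 95% confidence interval for 20 regulators of late progenitors, with Nfib, the gene past an adjusted p of 0.05, in red. Nfib and Notch1 lie lowest, near -0.3, and Hes1 highest at 0.16.

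Other Müller glia genes and early progenitor genes gave no call in the edgeR fit. Of 22 tested Müller glia genes 14 had a positive and 8 a negative fold change (median log2 0.08). Col9a1, a collagen gene, was at 235 ± 9.55 CPM over labelled cKO libraries and 207 ± 7.96 CPM across labelled control libraries (SD, n = 3 each; log2 fold change 0.18, edgeR adjusted p 0.089). Acsl3 was at 0.05 (edgeR adjusted p 0.719) and Prdx6 at 0.11 (0.245) on the same log2 scale. Apoe, an apolipoprotein of glia named after its value was seen, was at -0.18 (edgeR adjusted p 0.087). Of 14 early progenitor genes 7 were positive and 7 negative (median log2 0.00), with Fgf15 at 0.09 (edgeR adjusted p 0.428), Hmga1 at 0.04 (0.793) and Igf2bp1 at -0.21 (0.214). The authors' deposited table has Col9a1 at -0.18 (DESeq2 adjusted p 0.028), alone of the Müller glia list past 0.05. It also has Igf2bp1 at 0.28 (DESeq2 adjusted p 0.00063), Foxd1 at 0.39 (0.0072) and Fgf3 at -0.27 (0.027). Foxd1 and Fgf3 were named after their values were seen. Of all its genes with an adjusted p, 8.97% pass.

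The genes did not share 1 order over the libraries. Library control 1 was the lowest for Slc1a3, Dkk3, Crym, Glul and Sparc, and cKO 1 the highest for Glul, Vim and Sparc and the lowest for Car2 and Gpr37. By Pearson correlation of log2 CPM over the 6 libraries, among 10209 protein-coding genes of at least 10 CPM, the gene most like Car2 was Pptc7 (0.99), that most like Dkk3 was Fam241b (0.99), that most like Rlbp1 was Lhfpl4 (0.99) and that most like Clu was Nln (0.99). These are descriptions over 6 points and carry no test.

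Against the edgeR fit with genotype alone, the authors' deposited table gives 9 of the 10 genes the opposite sign. It lists Rlbp1 and Clu at 0.17 each with no adjusted p, Gpr37 at 0.07, Slc1a3 at -0.02, Glul at -0.03 and Sparc at -0.12, with DESeq2 adjusted p of 0.507, 0.909, 0.806 and 0.230 for the last 4. Vim, at 0.0026 (DESeq2 adjusted p 0.986), has the same sign as in that edgeR fit (0.02). With the exchanged sexes as covariate Vim was at -0.0037 in DESeq2 and -0.0015 in edgeR, which is the opposite sign. None of the 8 genes with an adjusted p in that table passes 0.05, and 8.97% of its genes with an adjusted p do.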

How the data were processed

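The submitters' processing notes name cutadapt 2.8, STAR 2.7.6a, featureCounts 1.5.1, DESeq2 1.32.0 and the build mm10; settings and any strand option: not given in the sources used here. The authors deposited whole-number counts per gene, not normalized. The authors' deposited comparison table holds a mean normalized signal, log2 fold changes with standard errors, a test statistic (score) and p-values.

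Columns were matched to samples by the descriptions in the labels. The 10 genes and all lists were chosen with earlier results of these data known. Counts were tested with edgeR 4.0.16 (R 4.3.3; TMM, filterByExpr, robust quasi-likelihood, Benjamini-Hochberg at 0.05) over 17275 genes, with genotype alone. CPM use TMM-scaled library sizes, and RPKM add summed exon lengths from GENCODE M21. Standard errors were computed as the fold change over the root of F. The procedure was tested on simulated data. Named from the other lists were called genes, or else up to 3 genes of highest CPM, unless said otherwise. Same-group libraries were further apart than sampling noise (chi-square over degrees of freedom, 7.39 to 12.5). Alternatives were other normalizations and filters, no robust estimation, DESeq2 1.42.0, limma-voom (limma 3.58.1), sex and replicate covariates, left-out libraries and lowess offsets that take out the trend with exon length. The covariate with exchanged sexes was chosen after seeing the data. Some genes of the lists are not reported here.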

Additional observations from a re-analysis of the deposited data

How the results depend on the processing

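The count of 0 of the 10 genes past the threshold was 1 with no filter on low counts, with DESeq2 and with the replicate block (Car2 each time) and 1 with the exchanged sexes as a covariate in edgeR (Crym); it was 0 to 1 with each library left out, and 0 in the other alternatives run. The count of 135 over all genes was 742 with no filter, 75 with a mean of at least 1 CPM, 10 with no robust estimation, 566 with DESeq2, 13 with limma-voom, 1065 with the replicate block, 38 with the exon length trend removed, 9 without both cKO 2 and control 2, 746 and 725 with the exchanged sexes in edgeR and DESeq2, and 19 to 778 with each library left out. The cause was not tested. Under the replicate block, libraries are paired by a number only: deviations of same-numbered libraries correlated at 0.09, -0.05 and 0.20, and not every library correlated best with its own number.

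The median log2 fold change of the 10 genes was 0.0139 in the main fit. Over the alternatives run it went from -0.0206 (without cKO 1) to 0.0623 (without both cKO 2 and control 2). No alternative moved it from the main value by more than its spread between replicates, 0.0542. The sign turned for Rlbp1 (0.0767) and Clu (0.0683) without both cKO 2 and control 2, for Glul with the exon length trend removed (-0.0075) and for Vim with the exchanged sexes in edgeR (-0.0015) and DESeq2 (-0.0037). With each library left out the log2 fold change ran from -0.3253 to 0.0176 for Clu, -0.0062 to 0.0473 for Glul, -0.0406 to 0.0722 for Vim, -0.0215 to 0.0583 for Slc1a3, -0.38 to -0.04 for Rlbp1, -0.42 to -0.22 for Car2, 0.05 to 0.21 for Crym, 0.07 to 0.16 for Sparc, 0.10 to 0.16 for Dkk3 and -0.09 to -0.06 for Gpr37. Dkk3, Car2, Crym, Gpr37 and Sparc kept their sign in all of them. With 3 libraries a group, values inside the intervals given are not excluded.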
